A study of Mus musculus with 13 samples.

Results

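Cortex of APP/PS1 mice given distilled water was compared with cortex of wild-type (WT) mice given the same water, to describe how gene expression differed between the 2 groups. The comparison held 3 APP/PS1 and 6 WT poly(A) RNA-seq libraries out of 13, with titles stating 2 weeks. The other 4 libraries, from APP/PS1 mice given trazodone, entered the fit only to share its estimate of the spread. All 9 libraries came from the dissected right cortex of perfused mice, and no animal in either group received a drug. Every gene whose mean reached 0.5 TPM (a length-scaled share of all transcripts, set to the same total in each library) over the 13 libraries was kept, which gave 18612 of 53832 deposited gene entries. Of these, 243 had a WT water mean under 0.5 TPM and an APP/PS1 water mean at or above it, and 500 had the reverse. The labels do not say which APP/PS1 line was used, which promoters drive its transgenes, or the age, sex or littermate status of the mice, and they do not state whether a library is 1 animal. The p-values therefore measure the spread between these libraries.

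APP/PS1 mice carry transgenes, among them human amyloid precursor protein (APP), that lead to the release of amyloid-beta from APP by secretases. Amyloid-beta gathers in plaques in the cortex. Microglia, the resident macrophages of the brain, surround plaques, sense lipids and debris through the receptor Trem2 and its adaptor Tyrobp, and raise genes for phagocytosis, lysosomal digestion and antigen presentation. Astrocytes near plaques enlarge and raise intermediate filaments and acute-phase genes, while neurites next to plaques swell and synapses are lost. To set these events side by side, 3617 symbols in 92 functional classes were followed. Of these, 28 had no entry in the table used here and 3091 passed the TPM minimum. A gene that sits in more than 1 class counts in each.

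The libraries were of similar depth, at an estimated 30.6 to 32.1 M (mega) fragments in APP/PS1 water and 32.5 to 33.5 M in WT water, with 16234 to 16835 genes at 1 TPM or more. They were not alike in base composition. The slope of log2 TPM on transcript GC content, per 10 percentage points, was -0.233, -0.192 and -0.160 in the APP/PS1 libraries, against -0.0416 to 0.0959 in the WT libraries, so GC-rich genes read lower in all 3 APP/PS1 libraries. Mitochondrial genes and their nuclear copies held 20.5% to 22.4% of TPM in APP/PS1 water and 13.4% to 17.99% in WT water. The instrument of each library is not given in the sources used here, so within this comparison genotype and a technical shift in GC content cannot be told apart at the level of whole libraries. The 4 APP/PS1 trazodone libraries did not share the shift, with slopes of 0.0261 to 0.140 and mitochondrial shares of 13.2% to 15.8%. Class counts below are also given after a per-library correction for GC content and transcript length. Excitatory and inhibitory neuron, oligodendrocyte, astrocyte, endothelial and microglial markers were detected in all 9 libraries. The summed TPM of 4 choroid plexus markers was 482.8 in WT replicate 3 and 2197 in WT replicate 6, against 9.28 to 26.8 in the other 7 libraries. Without those 2 libraries, 1055 genes were higher and 2971 lower.

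Across all genes tested, 1153 (6.19%) were higher and 3260 (17.5%) were lower in APP/PS1 water (limma on log2(TPM + 0.5), Benjamini-Hochberg adjusted p under 0.05), and the median log2 fold change was -0.10. These 2 percentages are the background against which each class count is read. All 3 APP/PS1 libraries lay above all 6 WT libraries in 1219 genes (6.55%) and below them in 3073 (16.5%). At least 2-fold, 242 genes were higher (1.3%) and 189 lower (1.02%). After the GC and length correction 1177 genes were higher (6.38%) and 1164 lower (6.31%) of 18448, and the median was -0.02. With median-ratio scaling, 2003 were higher (10.8%) and 2055 lower (11%), and the median was -0.008. The share of calls that were higher was thus 26.1% as deposited, 50.3% after GC correction and 49.4% with median-ratio scaling. Of the 4413 genes called as deposited, 1858 kept their direction after GC correction (795 higher and 1063 lower) and 4 were called in the opposite direction. Among genes ranked by GC content, the decile with the lowest GC had 16.5% of genes higher and 1.25% lower, and the decile with the highest had 1.79% higher and 46.2% lower. Log2 fold changes below are on the log2(TPM + 0.5) scale, which understates the change of low genes, and are given ± SE with n = 3 against 6. They are as deposited unless stated, and the GC-corrected value is printed for only some genes. Of the 122 called genes given by name, 116 kept their call after the GC and length correction, 5 lost it and 1 changed sign. A kept call can still have a smaller corrected fold.

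**Figure D1:**
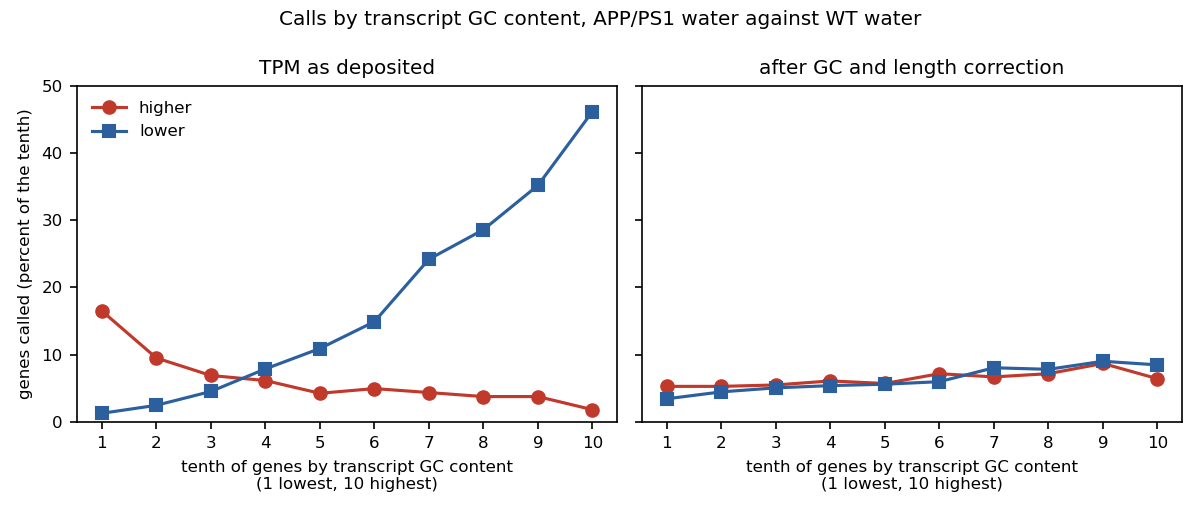
Percent of genes called higher (red circles) or lower (blue squares) in APP/PS1 water than in WT water, for deciles of the tested genes ordered by transcript GC content, with TPM as deposited (left) and after the GC and length correction (right). As deposited, the percent lower runs from 1.25% to 46.2% across the deciles, and after correction it stays between 3.41% and 9%.

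The class counts fell into blocks. Classes of microglial receptors and signalling had many members higher and few or none lower, lysosomal enzymes and reactive astrocyte genes leaned the same way, and most neuronal classes, the nuclear respiratory chain and splicing factors had a larger share of members lower than the 17.5% background. That background depends on expression. Among genes ranked by mean TPM over the 9 libraries, 3.88% of the lowest quintile and 34.9% of the highest were lower. After GC correction these shares were 1.41% and 13.5%. Classes were not matched for expression, so a lower share above 17.5% in a class of abundant genes may not be particular to it. Classes of oligodendrocytes and their precursors, endothelium and mural cells had at most 12.5% of members higher and 15% lower. A member whose WT mean lay under the minimum passed only through the APP/PS1 libraries, where it had to be high, and the number of such members is given beside the class. Class counts of 4 or fewer moved by up to 4 when 1 library was left out, a change as large as such counts themselves, so they are not firm. Larger counts of the classes described below that then moved by over 1.5 times are given with the library.

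**Figure D2:**
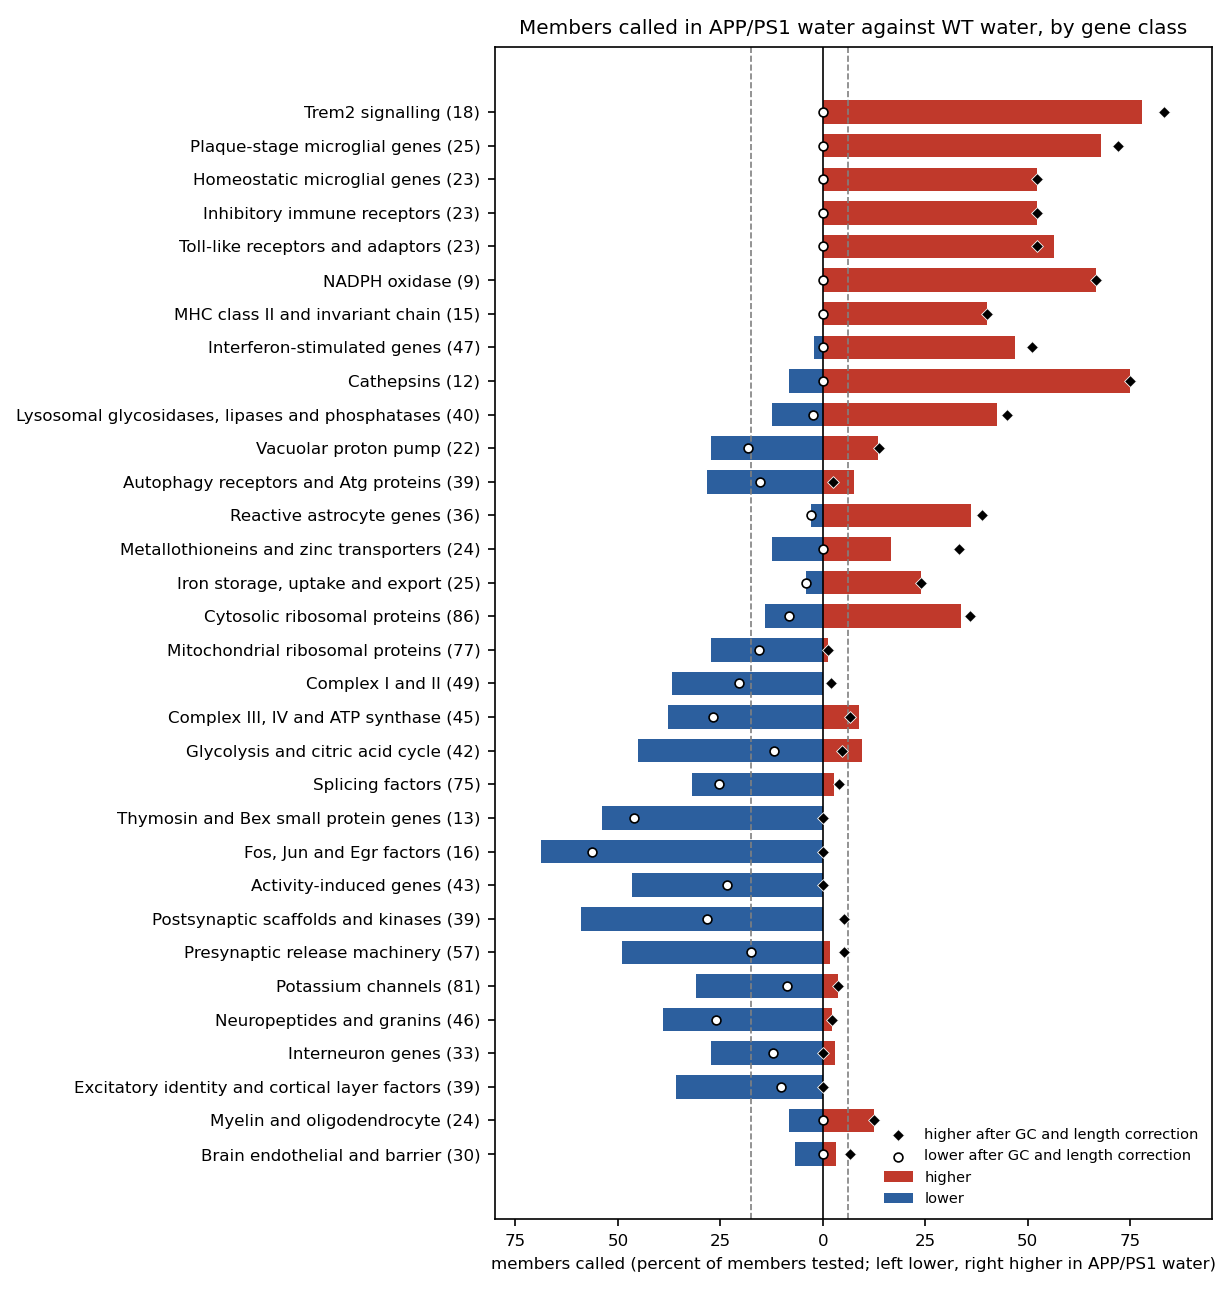
Percent of tested members called higher (red, right) or lower (blue, left) in APP/PS1 water than in WT water, for 32 classes with the number tested in brackets. Dashed lines mark the background of 6.19% higher and 17.5% lower, and diamonds and circles give the percents after the GC and length correction. Trem2 signalling had 77.8% of members higher and 0% lower, and the Fos, Jun and Egr factors 68.8% lower and 0% higher.

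The genes behind the model were read first. App (MSTRG.9156, GRCm38 chromosome 16, 84949685 to 85173766) measured 2066, 2003 and 1714 TPM in the 3 APP/PS1 libraries and ranged from 745 to 1008 TPM (median 960.0) in WT. No APP/PS1 library overlapped the WT range, and the log2 difference was 1.10 ± 0.11 (adjusted p = 2.12e-05). Human APP transcripts from the transgene may map to mouse App, so the value can hold both. Prnp, the prion protein gene whose promoter drives the transgenes of some APP/PS1 lines, measured 3213, 3202 and 3346 TPM against 849 to 956 TPM (median 926). Its groups lay far apart, with a log2 difference of 1.83 ± 0.06 (adjusted p = 7.53e-10), in a gene model that also covers Prn, a gene without a separate entry. In the class of APP family and secretase genes, 1 of 17 members was higher and 3 were lower, and 2 and 0 after GC correction. Aplp1, an APP homologue of neurons, fell by 0.44 ± 0.08 (adjusted p = 0.000965), which became -0.12 (adjusted p = 0.248) after GC correction. Among 10 amyloid-degrading proteases tested, 1 was higher and 3 were lower (1 and 0 after GC correction). The higher one was Plau, the urokinase that activates plasminogen, at 13.7, 13.7 and 10.3 TPM against 2.45 to 3.91 TPM (median 3.49). It stood above every WT library by 1.75 ± 0.16 log2 units (adjusted p = 8.7e-06). Ide, the insulin-degrading enzyme, did not pass, at 0.22 ± 0.08 (adjusted p = 0.0749), but was 0.26 (adjusted p = 0.0267) without WT replicate 6.

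The series concerns ST2, the receptor for interleukin 33, so its gene Il1rl1 was read although it lies under the TPM minimum. It measured 0.571, 0.651 and 0.584 TPM in APP/PS1 water and 0.0514 to 0.333 TPM in WT water. The 3 values were the highest of the 9, and the difference on the log2(TPM + 0.5) scale was 0.71 (exact two-sided permutation p = 0.0119, the smallest that 84 splits allow). Il33, the gene of the ligand, measured 74.04, 73.9 and 61.2 TPM against 43.6 to 52.8 TPM (median 49.7). The groups did not overlap, and Il33 rose by 0.51 ± 0.09 (adjusted p = 0.00109).

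Trem2 passes its signal to Tyrobp, whose phosphorylated tail recruits the kinase Syk and then adaptors, phospholipase and exchange factors. Of 18 members, all of which passed the minimum, 14 rose and 0 fell (77.8% against the 6.19% background), with a median log2 fold change of 0.83 against -0.10 over all genes (15 and 0 after GC correction). Trem2 measured 117, 141 and 109 TPM in APP/PS1 water and 15 to 23.2 TPM (median 19.4) in WT water, and rose by 2.68 ± 0.13 (adjusted p = 3.06e-08). Tyrobp measured 182, 235 and 164 TPM in APP/PS1 water and 26.4 to 39.9 TPM (median 28.5) in WT water. The lowest APP/PS1 value exceeded the highest WT value several-fold, and the difference was 2.67 ± 0.15 (adjusted p = 1.02e-07). Ptpn6, the phosphatase SHP-1 that damps signals from such receptors, measured 13.98, 14.9 and 8.81 TPM against 3.86 to 4.29 TPM (median 4.09). It rose by 1.48 ± 0.14 (adjusted p = 1.12e-05), with no overlap of the groups, in a gene model next to Gm45234, which has no entry of its own. Grb2, a general adaptor, did not pass, at -0.23 ± 0.25 (adjusted p = 0.552), and its 3 values lay inside the WT range. The summed TPM of 4 microglial markers (Tmem119, P2ry12, Cx3cr1 and Csf1r), 2 of which were higher, was 166.5 to 231.8 in APP/PS1 water, against 106.8 to 128.9 in WT water. In bulk tissue, more microglia and more RNA per microglial cell cannot be told apart, and this holds for every cell type below.

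Promoters of 2 called members of the microglial classes are shown because they carry the letters GAGGAAGT, a sequence of the kind bound by the myeloid factor PU.1, close to the gene start. Each is the 250 bases before the start from the RefSeq promoter table (GRCm38.p6), read 5′ to 3′ on the gene's strand with the match in capitals. The letters were searched on both strands and lay in 12 of 119 promoters of microglial genes (10.1%), where 96 of 118 genes had an entry in the table. Of all tested symbols, 12370 of 18585 had an entry, with the letters in 350 of 15810 promoters (2.21%). The 2 shares thus rest on unlike coverage. Such a match is a description of the letters and not a binding site.
Inpp5d, chr1:87620062-87620311, plus strand: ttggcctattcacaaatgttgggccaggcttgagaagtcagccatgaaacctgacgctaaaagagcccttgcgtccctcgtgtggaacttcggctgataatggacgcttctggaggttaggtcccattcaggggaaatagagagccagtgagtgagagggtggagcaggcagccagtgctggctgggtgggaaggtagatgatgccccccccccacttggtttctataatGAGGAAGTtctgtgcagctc
Vav1, chr17:57278850-57279099, plus strand: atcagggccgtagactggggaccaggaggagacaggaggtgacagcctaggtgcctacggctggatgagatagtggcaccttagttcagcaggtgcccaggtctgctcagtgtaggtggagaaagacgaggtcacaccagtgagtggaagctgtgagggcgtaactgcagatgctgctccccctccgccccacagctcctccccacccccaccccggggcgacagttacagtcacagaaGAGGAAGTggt

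Inpp5d encodes SHIP1, a lipid phosphatase that restrains phosphoinositide signals below Trem2, and it measured 18.98, 19.7 and 17 TPM in APP/PS1 water against 9.30 to 11.2 TPM (median 10.1) in WT water. Its groups were apart by 0.84 ± 0.09 (adjusted p = 3.44e-05). Vav1, an exchange factor for Rac in blood-lineage cells, measured 7.21, 8.11 and 6.39 TPM against 2.76 to 3.79 TPM (median 3.22). All 3 APP/PS1 values again lay above the WT range, by 1.04 ± 0.12 (adjusted p = 7.44e-05).

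The plaque-stage class, which gathers genes that microglia raise at plaques, had 17 of 25 tested members higher and 0 lower (18 and 0 after GC correction), and 3 of the 25 had a WT mean under the minimum. Clec7a, a receptor for fungal glucans, is one of these and measured 28.96, 35.2 and 25.1 TPM against 0.182 to 0.638 TPM (median 0.437). Apoe, the main lipid carrier of the brain, did not pass, at 469, 954 and 408 TPM against 559 to 1481 TPM (median 762). Its libraries overlapped, and the difference was -0.52 ± 0.31 (adjusted p = 0.248). Homeostatic genes, which mark resting microglia, had no lower call: 12 of 23 rose and 0 fell (12 and 0 after GC correction). Tgfbr1, a receptor subunit for TGF-beta, rose by 1.22 ± 0.11 (adjusted p = 7.48e-06). The fractalkine receptor gene Cx3cr1 did not pass, at 0.30 ± 0.32 (adjusted p = 0.536), but was 0.56 (adjusted p = 0.0353) without WT replicate 6.

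Inhibitory receptors restrain immune cells. Of 28 listed inhibitory receptors, 26 had an entry and 23 were tested, of which 12 rose and 0 fell (12 and 0 after GC correction), and 4 of those tested had a WT mean under the minimum. Lag3, a checkpoint receptor that binds MHC class II, measured 33.5, 51.7 and 36.1 TPM in APP/PS1 water and 8.38 to 11.02 TPM (median 8.86) in WT water. All 3 APP/PS1 values lay above the WT range, and Lag3 rose by 2.04 ± 0.15 (adjusted p = 1.56e-06). Siglecf, a sialic acid receptor with an inhibitory tail, measured 6.74, 5.67 and 3.14 TPM against 0.328 to 0.717 TPM (median 0.426). Its WT mean lies under the minimum, so the values are a description. Pdcd1, the checkpoint receptor PD-1 known from exhausted T cells, measured 2.70, 2.68 and 2.03 TPM and was listed at 0 in the lowest WT library, with a WT median of 0.111 and a highest value of 0.268 TPM, likewise under the minimum. The T cell marker Cd3e was among 5 blood leukocyte markers whose summed TPM was 3.03 to 11.6 in APP/PS1 water and 2.35 to 15.9 in WT water, with none of the 3 tested markers called. Sirpa, which receives the CD47 signal that blocks phagocytosis, did not pass, at -0.92 ± 0.35 (adjusted p = 0.0724).

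Toll-like receptors detect microbial and damage products, and their class had 13 of 23 members higher and 0 lower (12 and 0 after GC correction, and 1 with a WT mean under the minimum). An accessory pair had the smallest p. Cd180 is a relative of Tlr4, and Ly86 encodes the secreted partner that holds it at the surface. Ly86 measured 79.6, 100.5 and 75.5 TPM against 12.4 to 19.5 TPM (median 17.3). Cd180 measured 11.8, 12.8 and 9.08 TPM against 1.33 to 2.32 TPM (median 1.84). Neither gene overlapped between groups, and they rose by 2.35 ± 0.15 (adjusted p = 3.88e-07) and 2.33 ± 0.17 (adjusted p = 1.15e-06). Tlr13, a mouse receptor for bacterial ribosomal RNA, measured 5.11, 6.55 and 5.18 TPM against 1.03 to 1.59 TPM (median 1.48) and rose by 1.66 ± 0.14 (adjusted p = 4.27e-06). Downstream, the NF-kappa-B class was mixed, with 4 of 20 members higher and 3 lower (5 and 1 after GC correction). Tnfrsf1a, the main receptor for TNF, rose by 0.69 ± 0.10 (adjusted p = 0.00028). Tnip1, an inhibitor of the pathway, fell by 0.66 ± 0.12 (adjusted p = 0.00145), and by 0.37 (adjusted p = 0.0395) after GC correction.

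The NADPH oxidase of phagocytes makes superoxide from cytosolic and membrane subunits, and 6 of its 9 tested members rose and 0 fell, with a median of 1.01 (6 of 15 listed members did not reach the minimum, and 6 and 0 after GC correction). Hvcn1, the proton channel that carries compensating charge while the oxidase works, measured 11.4, 13.5 and 8.03 TPM against 2.37 to 4.04 TPM (median 3.44). It rose by 1.54 ± 0.17 (adjusted p = 5.04e-05). Cyba, the membrane subunit p22phox, rose by 1.43 ± 0.13 (adjusted p = 1.08e-05), in a model that overlaps Gm20388, which has no entry of its own.

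Genes of prostaglandin and leukotriene metabolism showed 6 of 25 members higher and 0 lower (7 and 0 after GC correction, and 1 with a WT mean under the minimum). Hpgds, the blood-lineage synthase of prostaglandin D2, measured 19.3, 19.8 and 17.3 TPM against 5.57 to 6.98 TPM (median 6.70). The groups lay apart by 1.46 ± 0.09 (adjusted p = 3.69e-07). Tbxas1, thromboxane synthase, measured 8.52, 8.18 and 6.66 TPM against 1.19 to 2.25 TPM (median 1.95) and rose by 1.81 ± 0.20 (adjusted p = 5.04e-05). Alox5, which starts leukotriene synthesis, rose by 0.89 ± 0.19 (adjusted p = 0.00407). Ptgds, the brain synthase of the same prostaglandin made by leptomeninges and glia, did not pass, at 1305, 1736 and 1933 TPM against 1561 to 2394 TPM (median 1937). Its libraries overlapped, with a difference of -0.21 ± 0.20 (adjusted p = 0.488).

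Among secreted signals, 7 of 23 chemokines tested (41 listed) rose and 0 fell (7 and 0 after GC correction, and 2 with a WT mean under the minimum). Ccl6 measured 20.4, 39.5 and 18.7 TPM against 0.527 to 1.86 TPM (median 1.66) and rose by 3.77 ± 0.38 (adjusted p = 2.04e-05). Interleukins and their receptors were mixed, with 7 higher and 3 lower of 35 tested out of 80 listed (9 and 1 after GC correction, and 1 with a WT mean under the minimum). The count of higher members as deposited was 4 without APP/PS1 replicate 2. Il18, a cytokine activated by the inflammasome, rose by 0.48 ± 0.09 (adjusted p = 0.00119), with 60.4, 67.9 and 71.4 TPM against 40.8 to 51.2 TPM (median 49.5). Colony-stimulating factors and receptors had 3 of 10 members higher and 0 lower (3 and 0 after GC correction, and 1 with a WT mean under the minimum). Csf3r, the receptor for granulocyte colony-stimulating factor, rose by 1.90 ± 0.14 (adjusted p = 1.18e-06). Csf1, the ligand that sustains microglia, measured 22.2, 24.01 and 21.5 TPM against 13.4 to 16.5 TPM (median 14.8) and rose by 0.60 ± 0.09 (adjusted p = 0.000355). Il34, the neuronal ligand of the same receptor, did not pass, at -0.27 ± 0.13 (adjusted p = 0.146), but was -0.35 (adjusted p = 0.0326) without WT replicate 2. Osmr, the receptor for oncostatin M, measured 14.6, 14.2 and 10.9 TPM against 2.05 to 5.28 TPM (median 4.22). It rose by 1.68 ± 0.22 (adjusted p = 0.000137).

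Complement, Fc receptor and antigen presentation classes held further rises. Complement had 11 of 26 members higher and 2 lower (11 and 0 after GC correction, and 1 with a WT mean under the minimum). Fc receptors had 4 of 8 tested higher and 0 lower (4 and 0 after GC correction, and 1 with a WT mean under the minimum), among them Fcgr2b, the inhibitory receptor for IgG, at 15.7, 20.8 and 25.1 TPM against 3.94 to 7.42 TPM (median 5.10). It rose by 1.86 ± 0.23 (adjusted p = 9.28e-05). In MHC class II and its invariant chain, 6 of 15 rose and 0 fell (6 and 0 after GC correction). Cd86, a co-stimulatory ligand, measured 11, 10.2 and 8.16 TPM against 1.36 to 2.58 TPM (median 2.12) and rose by 2.05 ± 0.18 (adjusted p = 5.47e-06). H2-Aa, a chain of the presenting molecule itself, varied within both groups, at 40.5, 10.2 and 10.3 TPM against 1.87 to 14.9 TPM (median 5.42). It did not pass (1.54 ± 0.67, adjusted p = 0.114). MHC class I and peptide loading had 4 of 25 higher and 2 lower (5 and 0 after GC correction). Border macrophage genes, which mark macrophages of vessels and meninges, had 0 of 13 members called in either direction, and the summed TPM of 4 of their markers was 6.60 to 13.02 in APP/PS1 water and 6.15 to 9.79 in WT water.

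Interferon-stimulated genes respond to type I and type II interferons through STAT and IRF factors. Of 54 listed, 49 had an entry and 47 were tested, 4 of them with a WT mean under the minimum. 22 rose and 1 fell (46.8% higher), and 24 rose and 0 fell after GC correction. Irf8, a factor that myeloid cells need, measured 17.3, 20.8 and 14.5 TPM against 4.16 to 6.72 TPM (median 6.09) and rose (adjusted p = 1.48e-05), in a model that overlaps Gm20388. Ifi27, an interferon-induced protein of mitochondria, measured 124, 115 and 110.2 TPM against 66.3 to 87.9 TPM (median 75.7). It rose by 0.61 ± 0.10 (adjusted p = 0.000576). The lower member was Trim25, a ubiquitin ligase of RNA sensing, at 2.26, 1.11 and 2.47 TPM against 3.43 to 5.90 TPM (median 4.29). Its difference was -1.03 ± 0.31 (adjusted p = 0.0253), and it did not pass after GC correction (adjusted p = 0.0605) or without APP/PS1 water replicate 2 (adjusted p = 0.14). Ifit3, which binds viral RNA together with its relatives, is shown with its promoter because that window holds the core of an interferon-stimulated response element (GAAA, any 2 bases, GAAA) in 2 places on the strand opposite to the gene (capitals).
Ifit3, chr19:34583279-34583528, plus strand: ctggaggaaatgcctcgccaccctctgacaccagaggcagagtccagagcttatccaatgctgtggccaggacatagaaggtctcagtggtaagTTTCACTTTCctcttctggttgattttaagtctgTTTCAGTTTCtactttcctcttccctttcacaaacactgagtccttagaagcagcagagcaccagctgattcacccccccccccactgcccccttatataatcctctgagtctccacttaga
Ifit3 measured 19.9, 20.96 and 16.3 TPM in APP/PS1 water and 8.65 to 13 TPM (median 10.7) in WT water. Its groups did not overlap, and it rose by 0.82 ± 0.14 (adjusted p = 0.000869). Only 36 of the 47 tested members have a promoter in the table, so the share with these letters was not compared with all promoters.

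Cathepsins are the main proteases of lysosomes, and 9 of 12 tested rose while 1 fell (75% higher). After GC correction 9 were higher and 0 lower, and 1 of the 12 had a WT mean under the minimum. Ctsz, a carboxypeptidase of phagocytes, measured 138, 164 and 124 TPM in APP/PS1 water and 42.7 to 59.3 TPM (median 55.5) in WT water. All APP/PS1 libraries exceeded the highest WT library, with a difference of 1.42 ± 0.13 (adjusted p = 6.65e-06). Ctsc, which activates granule proteases, rose by 1.04 ± 0.11 (adjusted p = 2.38e-05). Ctsf, the member that was lower, fell by 0.33 ± 0.09 (adjusted p = 0.0175) and did not pass after GC correction (adjusted p = 0.549) or without APP/PS1 replicate 1 (adjusted p = 0.0582) or replicate 2 (adjusted p = 0.0725). Of 4 cystatins and related inhibitors, 2 were higher and 0 lower (2 and 0 after GC correction, and 1 with a WT mean under the minimum). Cst3, the secreted cathepsin inhibitor cystatin C, measured 4172, 4874 and 3857 TPM against 2432 to 2895 TPM (median 2778). It rose by 0.64 ± 0.11 (adjusted p = 0.000936). Glycosidases, lipases and phosphatases of the lysosome had 17 of 40 members higher and 5 lower, and 18 and 1 after GC correction. Leaving out 1 library took the lower members as deposited to 2 without APP/PS1 replicate 2, 3 without WT replicate 1, 3 without WT replicate 2 and 3 without WT replicate 3. Lyz2, a lysozyme of myeloid cells, measured 113, 150.4 and 121 TPM against 9.68 to 24.3 TPM (median 16.1) and rose by 3.01 ± 0.21 (adjusted p = 1.15e-06). Arsa, which degrades the myelin lipid sulfatide, fell by 0.53 ± 0.08 (adjusted p = 0.000519), and by 0.26 (adjusted p = 0.04) after GC correction.

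Ctsa protects lysosomal sialidase and galactosidase in a complex with them. Its promoter is shown because it holds TCACGTGA, the palindromic form of the element bound by the lysosomal regulator Tfeb; it is 1 of 2 starts listed for the gene, and the other lacks those letters. Only 83 of 107 tested lysosomal genes have a promoter in the table, so no share is compared. Of the 50 called ones, 41 have a promoter there, and the letters lay in 1 of their 48 promoters, the one shown. They lay in 8 of 100 promoters of all tested lysosomal genes, and in 201 of 15810 promoters (1.27%) of all tested symbols, on unlike coverage.
Ctsa, chr2:164833523-164833772, plus strand: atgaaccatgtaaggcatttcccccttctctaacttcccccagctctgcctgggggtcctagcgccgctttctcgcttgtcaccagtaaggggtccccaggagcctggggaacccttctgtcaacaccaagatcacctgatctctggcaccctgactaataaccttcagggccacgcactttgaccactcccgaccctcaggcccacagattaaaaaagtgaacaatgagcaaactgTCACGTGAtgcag
Ctsa measured 138, 158 and 129.6 TPM in APP/PS1 water and 92.4 to 109 TPM (median 96.6) in WT water. All 3 values were above the WT range, by 0.52 ± 0.07 (adjusted p = 0.000261).

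Lysosomal membrane and biogenesis genes had 9 of 33 members higher and 0 lower (10 and 0 after GC correction), with a median of 0.00. Laptm5, a membrane protein of blood-lineage lysosomes, measured 161, 163 and 118 TPM against 30.9 to 42.3 TPM (median 38.2). It rose by 1.96 ± 0.12 (adjusted p = 3.69e-07). Slc15a3, which carries bacterial peptides out of the lysosome, measured 8.06, 8.83 and 7.73 TPM against 1.18 to 2.10 TPM (median 1.84) and rose by 1.98 ± 0.17 (adjusted p = 4.84e-06). The vacuolar proton pump, which acidifies lysosomes and synaptic vesicles, had 3 of 22 subunits higher and 6 lower (3 and 4 after GC correction). Atp6v0c, the proteolipid that forms its membrane ring, measured 239.7, 290.2 and 327 TPM against 546 to 1387 TPM (median 756). The WT libraries spread widely, yet none reached down to the APP/PS1 values, and Atp6v0c fell by 1.56 ± 0.32 (adjusted p = 0.00327). Atp6v1g2, the neuronal stalk subunit, measured 60.8, 81.6 and 81.2 TPM against 128 to 625 TPM (median 183) and fell by 1.73 ± 0.43 (adjusted p = 0.0094). Atp6v0e, a small ring subunit, rose by 0.56 ± 0.07 (adjusted p = 0.000131).

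Autophagy genes had 3 of 39 members higher and 11 lower, and 1 and 6 after GC correction. Map1lc3a encodes LC3A, which is lipidated onto the autophagosome, and measured 176, 169.8 and 174 TPM against 284 to 382 TPM (median 345). Its APP/PS1 values were close together and under the WT range, and it fell by 0.98 ± 0.08 (adjusted p = 5.46e-06), or by 0.60 (adjusted p = 2.97e-05) after GC correction. Calcoco1, a receptor for selective autophagy, fell by 0.56 ± 0.05 (adjusted p = 1.63e-05), and by 0.27 (adjusted p = 0.00397) after GC correction. Atg4c, a protease that processes LC3 relatives, rose by 0.25 ± 0.05 (adjusted p = 0.00303).

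In lipid classes, 5 of 29 apolipoprotein, receptor and exporter genes were higher and 7 lower, a split that became 8 and 0 after GC correction. With 1 library left out, the lower members as deposited numbered 4 without APP/PS1 replicate 2, 3 without APP/PS1 replicate 3 and 4 without WT replicate 1. Abca9, a macrophage transporter, measured 11.03, 10.4 and 7.91 TPM against 3.95 to 5.48 TPM (median 4.34) and rose by 1.02 ± 0.14 (adjusted p = 0.000226). Cyp46a1, the neuronal enzyme that turns over brain cholesterol, fell by 0.50 ± 0.09 (adjusted p = 0.00106) and did not pass after GC correction (-0.22, adjusted p = 0.0873). Sterol and fatty acid synthesis had 3 of 36 higher and 5 lower, and 7 and 0 after GC correction. The lower members as deposited numbered 2 without APP/PS1 replicate 2, 3 without APP/PS1 replicate 3, 3 without WT replicate 1, 3 without WT replicate 3 and 2 without WT replicate 5. Fatty acid binding, droplet and oxidation genes had 3 of 38 higher and 6 lower (3 and 2 after GC correction). Fabp3, a fatty acid carrier of neurons, measured 55.7, 79.5 and 78.5 TPM against 93.9 to 165 TPM (median 134). It fell by 0.88 ± 0.15 (adjusted p = 0.000995), or by 0.76 (adjusted p = 0.00328) after GC correction.

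Iron genes had 6 of 25 members higher and 1 lower (6 and 1 after GC correction). Higher members as deposited came to 3 without APP/PS1 replicate 1. Slc11a1, the phagosomal metal exporter Nramp1, measured 18.4, 16.3 and 12.9 TPM against 4.41 to 5.87 TPM (median 5.58). It rose by 1.48 ± 0.13 (adjusted p = 8.41e-06), with no overlap. The 2 heme oxygenases, which release iron from heme, went in opposite directions: the inducible Hmox1 measured 11.5, 15.3 and 11.3 TPM against 4.10 to 8.34 TPM (median 6.76) and rose by 0.91 ± 0.18 (adjusted p = 0.00294). The constitutive Hmox2 measured 52.1, 52.3 and 52.02 TPM against 57.2 to 111 TPM (median 83.9) and fell by 0.64 ± 0.17 (adjusted p = 0.014). Among Nrf2 and antioxidant genes (5 of 38 higher and 4 lower, and 7 and 3 after GC correction), Nfe2l2, which encodes Nrf2 itself, rose by 0.66 ± 0.11 (adjusted p = 0.00108). Sod1, the cytosolic superoxide dismutase, measured 256, 284 and 263 TPM against 369 to 487 TPM (median 435). It fell by 0.68 ± 0.09 (adjusted p = 0.000125). Selenop, the selenium carrier, rose by 0.61 ± 0.07 (adjusted p = 7.78e-05).

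Metallothioneins bind zinc and copper and are strong in astrocytes. Mt1 measured 1059, 1320 and 1119 TPM in APP/PS1 water and 555 to 708 TPM (median 623) in WT water. Mt2 measured 311, 439 and 364 TPM against 186 to 241 TPM (median 204). Both pairs of groups lay apart, and the genes rose by 0.89 ± 0.09 (adjusted p = 2.95e-05) and 0.81 ± 0.11 (adjusted p = 0.000204). Slc39a12, a zinc importer of astrocytes, rose by 0.38 ± 0.08 (adjusted p = 0.0049). With zinc transporters the class had 4 of 24 higher and 3 lower (8 and 0 after GC correction, and 1 with a WT mean under the minimum).

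Reactive astrocyte genes had 13 of 36 members higher and 1 lower (14 and 1 after GC correction, and 2 with a WT mean under the minimum). Gfap, the astrocyte intermediate filament, measured 933, 1000 and 904 TPM against 129 to 219.9 TPM (median 141) and rose by 2.66 ± 0.17 (adjusted p = 3.69e-07), in a model next to Fam187a, which has no entry of its own. Lgals1, a galectin, was the lower member, at -0.85 ± 0.21 (adjusted p = 0.00975) with overlapping libraries, and it did not pass without APP/PS1 water replicate 1 (adjusted p = 0.0587). Channels, transporters and identity markers of astrocytes showed 6 of 30 higher and 5 lower, and 7 and 0 after GC correction. The count of lower members as deposited was 2 without APP/PS1 replicate 2, 2 without APP/PS1 replicate 3, 2 without WT replicate 1, 3 without WT replicate 2 and 3 without WT replicate 5. Gjb6, connexin 30 of astrocyte gap junctions, measured 73.3, 89.5 and 110.3 TPM against 54.1 to 68.6 TPM (median 61.6) and rose by 0.54 ± 0.12 (adjusted p = 0.00424). Slc1a2, the main glutamate transporter, did not pass, at 0.22 ± 0.12 (adjusted p = 0.197). Slc14a1, a urea transporter of astrocytes, measured 30.9, 28.3 and 22.8 TPM against 6.69 to 11.4 TPM (median 7.62). The groups were far apart, and it rose by 1.70 ± 0.14 (adjusted p = 4.27e-06). The summed TPM of 4 astrocyte markers, 2 of which were higher, was 1221 to 1607 in APP/PS1 water, against 1057 to 1263 in WT water.

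Of 40 collagens tested, 0 were higher and 2 lower as deposited, and 5 were higher and 0 lower after GC correction (1 with a WT mean under the minimum). Sparc, a matrix glycoprotein of glia and vessels, measured 335, 308 and 281 TPM against 164 to 246 TPM (median 185). It rose by 0.67 ± 0.12 (adjusted p = 0.00145). Perineuronal net and proteoglycan genes had 2 of 32 higher and 7 lower (1 and 0 after GC correction). Of the higher members, Ptprz1, a proteoglycan phosphatase of precursors and astrocytes, rose by 0.48 ± 0.10 (adjusted p = 0.00277).

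**Figure D3:**
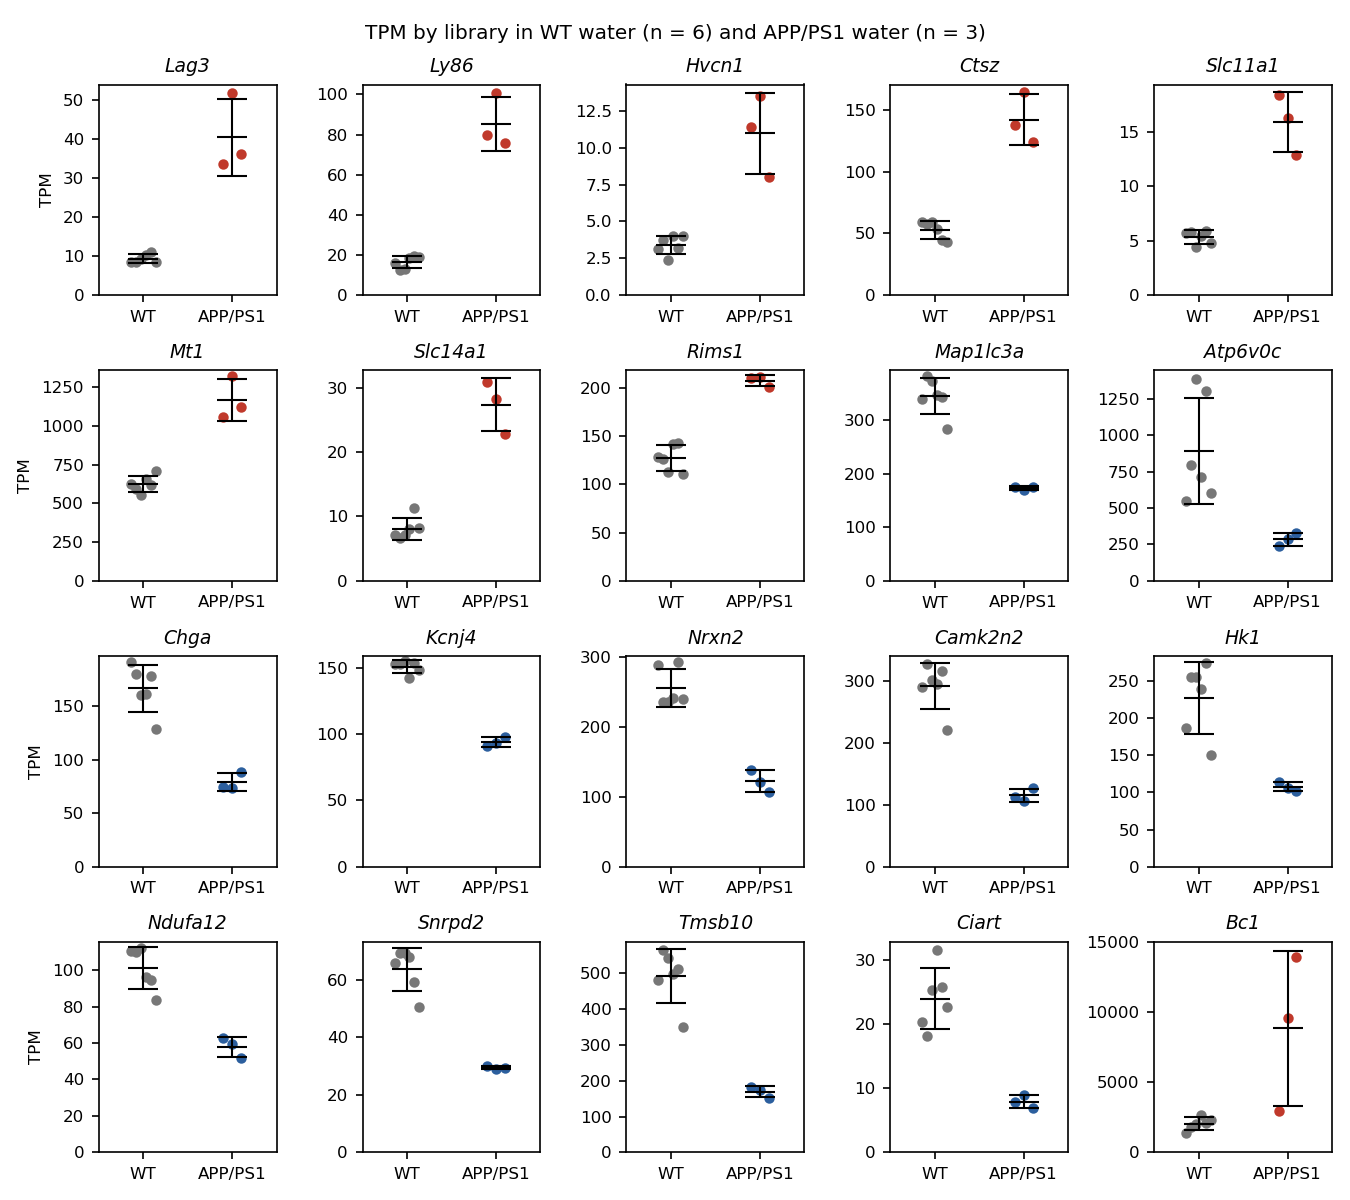
TPM of 20 named genes in each library of WT water (grey, n = 6) and APP/PS1 water (red where higher, blue where lower, n = 3), with horizontal lines for the mean and ± 1 SD and each panel on its own axis from 0. The panels were picked from called genes, and none shows an APP/PS1 library inside the WT range. Over all genes tested, the 3 APP/PS1 libraries lay above all 6 WT libraries in 6.55% and below them in 16.5%. The 3 Bc1 values spread from 2952 to 13940 TPM.

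Genes that neurons switch on with activity had many members lower and none higher. The Fos, Jun and Egr families are transcription factors induced within minutes of synaptic input. Of 16 members, 11 fell and 0 rose (68.8% against the 17.5% background), with a median of -0.78, and 9 fell after GC correction with a median of -0.42. After correction the class median of WT replicate 1, relative to the WT mean, was -0.43 and lay among the APP/PS1 values of -0.45 to -0.38, while as deposited it was -0.40 against -0.80 to -0.73. Junb measured 49.8, 54.3 and 64.9 TPM in APP/PS1 water and 131 to 290.0 TPM (median 203) in WT water. The highest APP/PS1 value lay well under the lowest WT value, and Junb fell by 1.83 ± 0.24 (adjusted p = 0.000161). Jund, the constitutive family member, measured 244, 239.7 and 247 TPM against 386 to 463 TPM (median 427) and fell by 0.81 ± 0.08 (adjusted p = 1.11e-05), which became 0.27 (adjusted p = 0.00348) after GC correction. Egr3 did not pass, at -0.22 ± 0.13 (adjusted p = 0.252). Of 43 other activity-induced genes, 20 fell and 0 rose, and 10 fell after GC correction. The corrected class medians of WT replicates 1 and 6 were -0.18 and -0.20, against -0.32 to -0.18 in APP/PS1 water. Vgf, a secreted granin relative induced by neurotrophins, measured 185, 184 and 191 TPM against 289.5 to 471 TPM (median 347). It fell by 0.97 ± 0.14 (adjusted p = 0.000376), and by 0.49 (adjusted p = 0.0335) after GC correction. The Dusp phosphatases, which switch off MAP kinases, had 8 of 22 lower and 0 higher, and 3 lower and 1 higher after GC correction. Leaving out 1 library took the lower members as deposited to 5 without APP/PS1 replicate 1, 5 without APP/PS1 replicate 2 and 4 without APP/PS1 replicate 3. Dusp1 measured 34, 38.2 and 45.4 TPM against 62.1 to 129 TPM (median 93.5) and fell by 1.21 ± 0.26 (adjusted p = 0.00414). In the same libraries the summed TPM of 4 excitatory neuron markers, 3 of which were lower, was 704.7 to 755.1 in APP/PS1 water, against 822.2 to 1148 in WT water. The part of that shift in these counts was not tested.

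Promoters of 2 called genes of these classes are shown for the elements known to couple activity to transcription: TGACGTCA, the cyclic AMP response element bound by Creb, in Btg2, and the CArG box bound by serum response factor in Srf, which encodes that factor. Both strands were searched. Only 44 of 59 tested genes of these classes have a promoter in the table, so no share is compared.
Btg2, chr1:134079156-134079405, minus strand: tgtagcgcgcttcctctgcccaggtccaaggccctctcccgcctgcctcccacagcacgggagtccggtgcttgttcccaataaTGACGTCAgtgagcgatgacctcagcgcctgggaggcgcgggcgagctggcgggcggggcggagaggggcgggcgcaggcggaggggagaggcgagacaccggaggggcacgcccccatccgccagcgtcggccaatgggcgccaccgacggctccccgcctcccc
Srf, chr17:46556163-46556412, minus strand: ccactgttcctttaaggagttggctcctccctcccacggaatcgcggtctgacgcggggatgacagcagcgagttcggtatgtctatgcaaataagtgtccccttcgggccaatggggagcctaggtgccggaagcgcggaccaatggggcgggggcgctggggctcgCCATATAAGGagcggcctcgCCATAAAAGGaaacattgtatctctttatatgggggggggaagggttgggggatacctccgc
Btg2, an anti-proliferative early gene, measured 11.2, 11.2 and 18.8 TPM against 24.3 to 49.7 TPM (median 39.5). It fell by 1.42 ± 0.31 (adjusted p = 0.00472), with all 3 values under the WT range. Srf measured 52.9, 50.5 and 50.3 TPM against 60.2 to 69.8 TPM (median 64.2). It fell by 0.34 ± 0.06 (adjusted p = 0.00175) as deposited, but after GC correction it was 0.15 (adjusted p = 0.229), so the call was lost and the sign changed.

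Postsynaptic scaffolds and kinases, which hold receptors in the spine, had 23 of 39 members lower and 0 higher (59% lower), and 11 lower and 2 higher after GC correction. Camk2n2, an inhibitor of calcium/calmodulin kinase II, measured 113, 107 and 127 TPM against 221 to 327 TPM (median 299). Its groups were apart, and it fell by 1.33 ± 0.11 (adjusted p = 4.19e-06), in a model next to Gm49333, which has no entry of its own. Camk2n1, its paralogue, did not pass, at 0.18 ± 0.09 (adjusted p = 0.173). Cacng8, an auxiliary subunit of AMPA receptors, measured 78.7, 72.1 and 61.6 TPM against 123 to 169.6 TPM (median 152) and fell by 1.05 ± 0.10 (adjusted p = 1.8e-05), or by 0.57 (adjusted p = 0.00114) after GC correction. Among glutamate receptors, 8 of 24 were lower and 1 higher, and 6 and 1 after GC correction. Grm2, a presynaptic inhibitory receptor, fell by 0.71 ± 0.11 (adjusted p = 0.000506), and by 0.40 (adjusted p = 0.0289) after GC correction. Of 16 GABA receptor genes, 1 rose and 2 fell (0 and 2 after GC correction), and the 2 that fell were both subunits of the metabotropic GABA-B receptor. Gabbr1 measured 350.1, 324 and 309.8 TPM against 416 to 515 TPM (median 463). Gabbr2 measured 108, 91.3 and 88.5 TPM against 137 to 180.2 TPM (median 159). They fell by 0.50 ± 0.07 (adjusted p = 0.000237) and 0.71 ± 0.10 (adjusted p = 0.00018), and both passed after GC correction at -0.29 and -0.42.

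Presynaptic release genes had 28 of 57 members lower and 1 higher, and 10 lower and 3 higher after GC correction. Nrxn2, a presynaptic adhesion protein, measured 138, 120.4 and 107 TPM against 235 to 292 TPM (median 240.2). It fell by 1.06 ± 0.09 (adjusted p = 5.66e-06), and by 0.56 (adjusted p = 0.000277) after GC correction. Sncb, beta-synuclein, measured 410.4, 419 and 439.6 TPM against 659 to 861 TPM (median 826) and fell by 0.92 ± 0.08 (adjusted p = 7.73e-06), or by 0.58 (adjusted p = 7.21e-05) after correction. The single member that rose was Rims1, an organizer of the release site, at 210.4, 211 and 201 TPM against 111 to 143 TPM (median 127). Every APP/PS1 library exceeded the WT range, by 0.71 ± 0.10 (adjusted p = 0.000187). Syt1, the calcium sensor of release, did not pass, at -0.38 ± 0.16 (adjusted p = 0.0965).

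Potassium channels had 25 of 81 lower and 3 higher, and 7 lower and 3 higher after GC correction (1 with a WT mean under the minimum). Kcnj4, an inward rectifier of forebrain neurons, measured 90.8, 93.2 and 98 TPM against 142 to 155 TPM (median 153). Both groups were tight and apart, and Kcnj4 fell by 0.68 ± 0.05 (adjusted p = 3.15e-06), or by 0.37 (adjusted p = 5.64e-05) after correction. Kcnj2, a rectifier also found in vessels and glia, rose by 0.53 ± 0.11 (adjusted p = 0.00332). Sodium and calcium channels had 13 of 36 lower and 0 higher, and 6 lower after correction. With 1 library left out, the lower members as deposited numbered 8 without APP/PS1 replicate 2 and 6 without APP/PS1 replicate 3. Cholinergic genes had 6 of 19 lower and 0 higher, and 3 lower after correction. Chrm1, the main cortical muscarinic receptor, measured 55.5, 55.5 and 52.9 TPM against 70.6 to 89.5 TPM (median 77.95) and fell by 0.54 ± 0.09 (adjusted p = 0.000602), or by 0.32 (adjusted p = 0.0272) after correction. Monoamine and histamine receptors had 10 of 26 lower and 0 higher, and 2 were lower after correction.

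Peptide and granin genes, which load dense-core vesicles, had 18 of 46 members lower and 1 higher, and 12 lower and 1 higher after GC correction. Chga, chromogranin A, measured 74.8, 73.8 and 88.5 TPM against 129 to 191 TPM (median 170.1). Chgb, chromogranin B, measured 163, 188 and 182 TPM against 251 to 356 TPM (median 341). Neither overlapped between groups, and they fell by 1.07 ± 0.10 (adjusted p = 1.56e-05) and 0.86 ± 0.10 (adjusted p = 6.14e-05). Pcsk1n, an inhibitor of the prohormone convertase, fell by 0.74 ± 0.10 (adjusted p = 0.000189), or by 0.49 (adjusted p = 0.00378) after correction. The member that rose was Cpe, the carboxypeptidase that trims peptides, at 2945, 2898 and 3060 TPM against 2317 to 2600 TPM (median 2517). It rose by 0.26 ± 0.06 (adjusted p = 0.0101), but was -0.07 after quantile normalization.

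Interneuron genes had 9 of 33 lower and 1 higher, and 4 lower and 0 higher after GC correction. Slc32a1, the vesicular GABA transporter, measured 75.2, 83.99 and 75.8 TPM against 113 to 170.1 TPM (median 135) and fell by 0.80 ± 0.10 (adjusted p = 0.000107), or by 0.38 (adjusted p = 0.0338) after correction. Cck, cholecystokinin, measured 394, 423 and 469 TPM against 611 to 1004 TPM (median 816) and fell by 0.93 ± 0.13 (adjusted p = 0.000303). Excitatory identity and layer factors had 14 of 39 lower and 0 higher, and 4 lower after correction. Bcl11a, a factor of deep-layer projection neurons, fell by 0.42 ± 0.05 (adjusted p = 0.000118) and by 0.42 after correction. Neuronal cytoskeleton genes had 13 of 32 lower and 0 higher, and 6 lower and 2 higher after correction. Ina, the filament alpha-internexin, fell by 0.59 ± 0.09 (adjusted p = 0.000377), or by 0.35 (adjusted p = 0.0121) after correction. Striatal genes had 9 of 18 lower and 0 higher, and 2 lower after correction. The lower members as deposited numbered 3 without APP/PS1 replicate 1 and 3 without APP/PS1 replicate 3. The summed TPM of 4 striatal markers was 94.2, 132.8 and 61.9 in APP/PS1 water and 130.0 to 241.4 in WT water. How much striatum each dissection held was not measured, so its part in the lower neuronal counts was not tested. Thymosin, Bex and related small protein genes of neurons had 7 of 13 lower and 0 higher, and 6 lower after correction. Tmsb10, a thymosin that binds actin monomers, measured 182, 173 and 152 TPM against 351 to 566 TPM (median 504). Bex3 measured 36, 35.2 and 40.9 TPM against 71.2 to 131 TPM (median 115). They fell by 1.53 ± 0.13 (adjusted p = 4.27e-06) and 1.51 ± 0.15 (adjusted p = 1.97e-05), with no overlap in either gene.

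**Figure D4:**
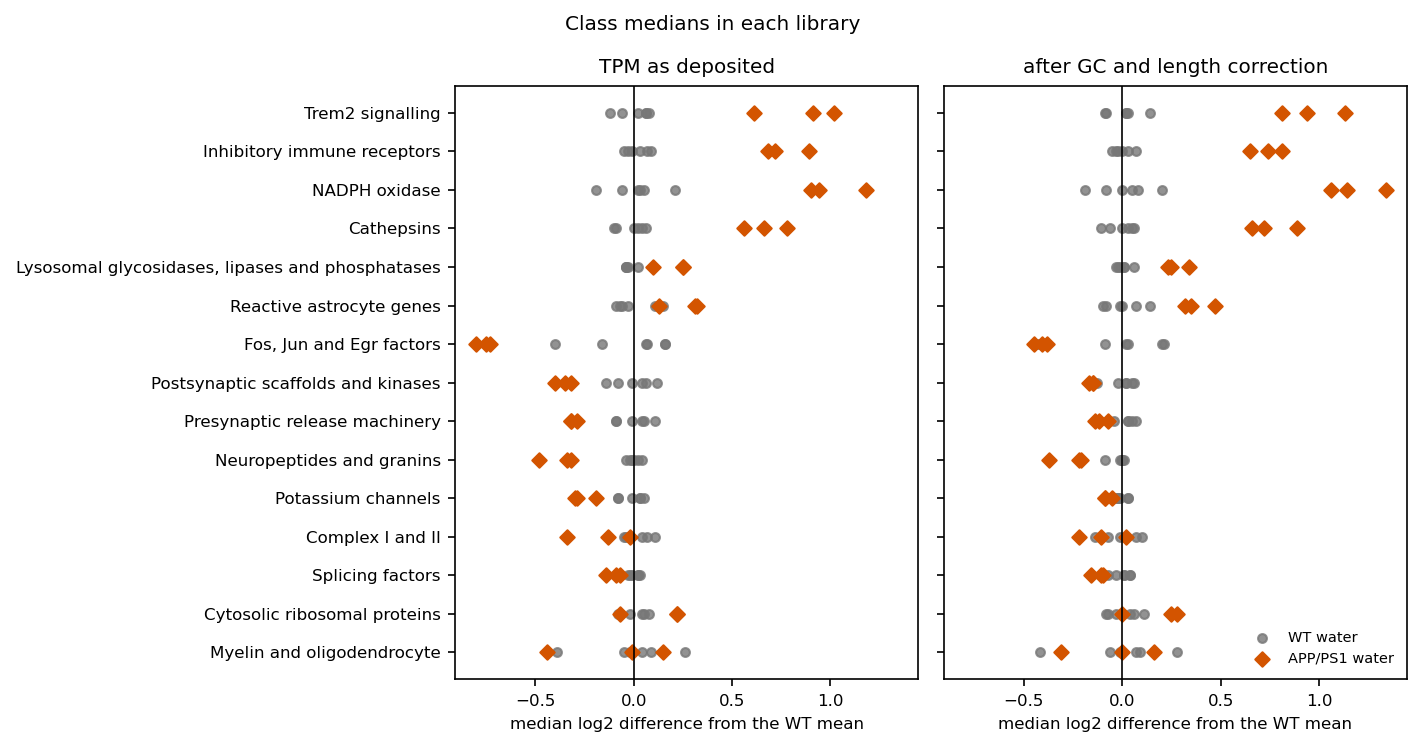
Median over the tested members of 15 classes of each library's log2(TPM + 0.5) minus the WT mean, for WT water (grey circles, n = 6) and APP/PS1 water (orange diamonds, n = 3), as deposited (left) and after the GC and length correction (right). Trem2 signalling, NADPH oxidase and cathepsins keep the 3 APP/PS1 libraries to the right of every WT library in both panels, while the APP/PS1 medians of the potassium channels lie between -0.30 and -0.19 as deposited and between -0.09 and -0.05 after correction.

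Nuclear genes of the respiratory chain had more members lower than higher, as did all genes tested (17.5% lower and 6.19% higher). The median log2 fold change was -0.11 for complex I and II and -0.15 for complex III, IV and ATP synthase, against -0.10 over all genes. Complex I and II had 18 of 49 members lower and 0 higher, and 10 and 1 after GC correction. Ndufa12, an accessory subunit of complex I, measured 62.7, 59.2 and 51.7 TPM against 83.7 to 112 TPM (median 103). It fell by 0.80 ± 0.10 (adjusted p = 0.000114), with no overlap. Complex III, IV and ATP synthase had 17 of 45 lower and 4 higher, and 12 and 3 after correction. Lower members as deposited came to 11 without APP/PS1 replicate 2. Atp5g3, a ring subunit of ATP synthase, measured 304, 298 and 315 TPM against 437 to 566 TPM (median 527) and fell by 0.74 ± 0.08 (adjusted p = 3.92e-05). Atp5mpl, a small proteolipid of the same enzyme, rose by 0.65 ± 0.14 (adjusted p = 0.00347). Of the transcripts of the mitochondrial genome, 4 of 10 tested rose and 0 fell out of 13 listed (3 and 0 after GC correction). mt-Nd2, a complex I subunit, measured 13180, 12180 and 12810 TPM against 6771 to 9162 TPM (median 7950) and rose by 0.68 ± 0.12 (adjusted p = 0.000881), but was 0.44 (adjusted p = 0.0196) after GC correction and -0.09 after quantile normalization, and its reads cannot be told apart from those of near-identical nuclear copies. Glycolysis and the citric acid cycle had 19 of 42 lower and 4 higher, but 5 and 2 after GC correction. Among the hexokinases, which trap glucose, members moved in opposite directions. Hk1, the brain form, measured 114, 106 and 102 TPM against 151 to 275 TPM (median 247) and fell by 1.04 ± 0.18 (adjusted p = 0.00118). Hk3, a form of blood-lineage cells, measured 2.66, 2.67 and 2.43 TPM against 0.883 to 1.48 TPM (median 1.10) and rose by 0.92 ± 0.16 (adjusted p = 0.00134). Neither gene had an APP/PS1 library inside the WT range.

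Translation and RNA processing classes differed in direction. Cytosolic ribosomal proteins had 29 of 86 higher and 12 lower, and 31 and 7 after GC correction (1 with a WT mean under the minimum). Such genes have many processed pseudogenes, so reads may be split between copies. Rpl5 rose by 0.48 ± 0.06 (adjusted p = 0.000187), and Rps15 measured 515, 612 and 667 TPM against 788 to 1031 TPM (median 959.7). Rps15 fell by 0.67 ± 0.10 (adjusted p = 0.000287), and by 0.34 (adjusted p = 0.0121) after correction. Mitochondrial ribosomal proteins had 1 of 77 higher and 21 lower, and 1 and 12 after correction. The count of lower members as deposited was 13 without APP/PS1 replicate 2. Mrps12, of the small subunit, measured 38.5, 33.4 and 48.5 TPM against 60.2 to 93.4 TPM (median 80.8) and fell by 0.97 ± 0.15 (adjusted p = 0.000432). Splicing factors had 24 of 75 lower and 2 higher, and 19 and 3 after correction. Snrpd2, a core protein of spliceosomal particles, measured 30.1, 29.1 and 29.4 TPM against 50.5 to 69.3 TPM (median 66.9). The 3 APP/PS1 values were nearly equal and under the WT range, and Snrpd2 fell by 1.09 ± 0.09 (adjusted p = 4.84e-06). Sf3b5, of the branch-point complex, fell by 0.82 ± 0.09 (adjusted p = 3.44e-05). Translation factors had 16 of 63 lower and 3 higher, and 9 and 1 after correction. Eif4h, a cofactor of the mRNA helicase, measured 272, 137 and 139.6 TPM against 289 to 397 TPM (median 347) and fell by 0.99 ± 0.18 (adjusted p = 0.00129).

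The proteasome had 7 of 48 higher and 6 lower (3 and 4 after GC correction, and 1 with a WT mean under the minimum), ER chaperones 5 higher and 4 lower of 33 (4 and 0 after GC correction), and Atf4 targets 2 higher and 8 lower of 36 (3 and 3 after GC correction). Leaving out 1 library took the higher proteasome genes as deposited to 4 without APP/PS1 replicate 2. With 1 library left out, the lower proteasome genes as deposited numbered 10 without WT replicate 6. The higher ER chaperones as deposited numbered 3 without APP/PS1 replicate 2. Lower Atf4 targets as deposited came to 5 without APP/PS1 replicate 1, 5 without APP/PS1 replicate 2 and 4 without APP/PS1 replicate 3. Edem1, which hands misfolded glycoproteins to degradation, measured 22.2, 19.4 and 18.7 TPM against 11.5 to 14.4 TPM (median 13.4) and rose by 0.58 ± 0.09 (adjusted p = 0.000432). Ddit4, a stress-induced inhibitor of mTORC1, measured 25.3, 32.98 and 35.9 TPM against 46.6 to 62.2 TPM (median 54). It fell by 0.78 ± 0.12 (adjusted p = 0.000447). Cytosolic heat shock chaperones had 11 of 35 lower and 2 higher, but 3 and 2 after GC correction. The count of lower members as deposited was 5 without APP/PS1 replicate 1, 7 without APP/PS1 replicate 2 and 6 without WT replicate 3. Clock genes had 7 of 24 lower and 0 higher, and 2 and 1 after correction. Ciart, a repressor in the clock, measured 7.91, 8.98 and 6.87 TPM against 18.1 to 31.5 TPM (median 23.9). Its groups were apart, and it fell by 1.52 ± 0.19 (adjusted p = 0.000122). The time of day at which tissue was taken is not given in the sources used here. Abundant noncoding RNAs of the brain had 1 of 25 higher and 2 lower (1 and 3 after GC correction). The higher one, Bc1, a short neuronal RNA made by RNA polymerase III, measured 2952, 9620 and 13940 TPM against 1361 to 2697 TPM (median 2043). The APP/PS1 libraries were above WT but differed among themselves, and Bc1 rose by 1.88 ± 0.38 (adjusted p = 0.00288).

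Myelin genes had 3 of 24 members higher and 2 lower (3 and 0 after GC correction). Klk6, a protease of oligodendrocytes, measured 10.3, 7.43 and 8.40 TPM against 2.18 to 5.20 TPM (median 4.38) and rose by 1.06 ± 0.25 (adjusted p = 0.0073). Mbp, myelin basic protein, was -0.74 ± 0.20 (adjusted p = 0.0177) with overlapping libraries, and it did not pass after GC correction (adjusted p = 0.0802) or without APP/PS1 water replicate 3 (adjusted p = 0.11). Precursor genes had 1 of 20 higher and 3 lower (3 and 0 after GC correction), endothelial and barrier genes 1 and 2 of 30 (2 and 0 after GC correction), and pericyte and smooth muscle genes 0 and 1 of 17 (1 and 0 after GC correction). Choroid plexus and ependymal genes had no member called in either direction out of 15 (0 and 0 after GC correction), with the 2 WT libraries above holding most of that RNA. Proliferation genes had 2 of 33 higher and 1 lower (2 and 1 after GC correction, and 2 with a WT mean under the minimum).

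As deposited, the 2 broadest families lay near the background. Zinc finger (Zfp) genes had 27 of 354 higher and 54 lower (7.63% and 15.3%), and solute carriers 14 of 279 and 50 (5.02% and 17.9%). After GC correction 8 zinc finger genes were higher and 24 lower, and 23 solute carriers were higher and 14 lower, beside 6.38% and 6.31% over all genes. The balance of calls over all genes shifted with that correction too, from 26.1% higher to 50.3% higher. In these families 1 and 3 members had a WT mean under the minimum. Leaving out 1 library took the higher zinc finger genes as deposited to 16 without APP/PS1 replicate 1 and 16 without APP/PS1 replicate 2. With 1 library left out, the lower zinc finger genes as deposited numbered 35 without APP/PS1 replicate 2 and 29 without APP/PS1 replicate 3. The higher solute carriers as deposited numbered 9 without APP/PS1 replicate 1, 9 without APP/PS1 replicate 2 and 9 without WT replicate 2. Lower solute carriers as deposited came to 31 without APP/PS1 replicate 2. Slc12a5, the neuronal chloride exporter KCC2, measured 146, 149.5 and 147 TPM against 199 to 274 TPM (median 235). It fell by 0.68 ± 0.09 (adjusted p = 0.000127), or by 0.31 (adjusted p = 0.0146) after GC correction. Among Rab GTPases, 6 of 54 were higher and 13 lower (4 and 4 after GC correction, and 1 with a WT mean under the minimum). Rab7b, a late endosomal form of macrophages, measured 3.21, 3.43 and 2.46 TPM against 0.355 to 0.842 TPM (median 0.522) and rose by 1.77 ± 0.23 (adjusted p = 0.000132). Kinesins and dyneins had 2 of 52 higher and 7 lower (1 and 2 after GC correction). The count of lower members as deposited was 2 without APP/PS1 replicate 2 and 2 without APP/PS1 replicate 3. Kif5b, one of the higher members and the ubiquitous kinesin heavy chain, measured 246, 219 and 185 TPM against 130.1 to 158 TPM (median 139.9). It rose by 0.59 ± 0.10 (adjusted p = 0.000738).

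Called genes outside every class were taken from the largest folds. Mpeg1, the pore-forming perforin 2 of macrophages, measured 102, 113 and 77.2 TPM against 13.2 to 18.8 TPM (median 17.1). It rose by 2.49 ± 0.14 (adjusted p = 1.55e-07). Hcar2, the receptor for niacin and hydroxybutyrate, measured 2.65, 3.94 and 3.37 TPM and was listed at 0 in the lowest WT library, with a highest WT value of 0.311 TPM. The WT mean of Hcar2 lies under the minimum, so its values are a description. Cd53, a leukocyte tetraspanin, measured 41.3, 41.04 and 34.7 TPM against 6.05 to 9.94 TPM (median 9.30) and rose by 2.12 ± 0.15 (adjusted p = 1.26e-06). On the lower side, Edf1, a transcriptional coactivator, measured 65.5, 61.7 and 60.7 TPM against 102 to 232 TPM (median 180.0). It fell by 1.45 ± 0.20 (adjusted p = 0.000212). Myl4, a myosin light chain, fell by 1.47 ± 0.34 (adjusted p = 0.00632), with 9.13, 7.98 and 9.44 TPM against 11.4 to 43.4 TPM (median 24.96).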

How the data were processed

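Poly(A) RNA of right cortex was sequenced in 13 libraries, grouped by their titles (3 APP/PS1 water, 6 WT water, 4 APP/PS1 trazodone). Per the submitters' processing notes, fastp, STAR and DESeq2 were used with GRCm38/mm10; neither their versions nor the step of each is stated. TPM and FPKM values were deposited by the authors for 53832 gene entries (25412 with assembled MSTRG identifiers and 28420 with Ensembl identifiers), of which 83 symbols sit on more than 1 entry. Rescaling each library's deposited FPKM to the total of its TPM gave the deposited TPM within 0.00868. The values are not counts, so no count test was run, and depth was estimated from the value of 1 fragment in 2424 single-exon genes of at least 1000 bases.

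Genes whose mean TPM reached 0.5 were fitted on log2(TPM + 0.5) in limma 3.58.1 (R 4.3.3) with 3 groups, a mean-variance trend and no block, and called at a Benjamini-Hochberg adjusted p under 0.05 over all 18612. The GC and length correction subtracted each library's loess trend (span 0.4) over 18448 genes with both values from GENCODE M21, which stands in for the unnamed release. Il1rl1 had an exact permutation test over libraries.

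The members and class lists were chosen with earlier results of these data known, so no list has a test of its own. Genes are named by 1 rule: App, Prnp, Trem2, Gfap, Il33 and Il1rl1 and some others always; in each class up to 3 called members with the smallest p in the direction with more calls, 1 in the other direction and 2 that did not pass with the highest TPM; outside the classes the 10 with the largest fold in each direction; and the 5 with the highest TPM in each direction. Some of these are left out, and a few genes are not reported here. Genes shown with a promoter (Inpp5d, Vav1, Ifit3, Ctsa, Btg2 and Srf) were the called members with the smallest p whose RefSeq window (GRCm38.p6) holds the letters searched for their classes. Genes on chromosome 18 were left out of that choice. Alternatives covered the pseudocount, the minimum, FPKM, other scalings, blocks, weights, thresholds and each left-out library.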

Additional observations from a re-analysis of the deposited data

Results flagged for a closer look

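Of the 122 called genes given by name, 9 had 1 WT library far from the other 5 by Dixon's gap test, which chance alone gives in about 1 in 20 groups. In 5 of them the library was WT replicate 6 and the value the lowest: Camk2n2 at 220.6 TPM, Rps15 at 788.5 TPM, Sncb at 659.4 TPM, Tbxas1 at 1.192 TPM and Tmsb10 at 351.1 TPM. This is 1 of the libraries with choroid plexus RNA. WT replicate 4 had the lowest Tlr13 (1.034 TPM) and the highest Tyrobp (39.93 TPM). WT replicate 2 had the lowest Cst3 (2432 TPM), and WT replicate 5 the highest Gfap (219.9 TPM). All 9 genes kept their call when that library was left out.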

How the results depend on the processing

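The calls as deposited, 1153 higher and 3260 lower with a median of -0.102, held within 1.5 times under other pseudocounts, minimums, a fit of the 2 groups, robust eBayes and array weights, though the median became -0.033 with no minimum. Leaving out 1 library gave 784 to 1299 higher and 2385 to 3378 lower, with a median of -0.123 to -0.077; leaving out WT replicates 3 and 6 together, chosen after seeing the data, gave 1055 and 2971. Scaling moved the balance. FPKM gave 1896 higher with a median of -0.018, median-ratio scaling 2003 higher and 2055 lower (-0.008), quantile normalization 2118 and 2071 (-0.014), and dropping mitochondrial, hemoglobin and ribosomal protein genes before rescaling 1956 and 1935 (0.002). The GC and length correction left 1164 lower (-0.018). At an adjusted p under 0.01, 611 were higher and 1809 lower, and at least 2-fold, 242 and 189. Of 184 class counts, 83 moved by over 1.5 times with the GC correction, 74 with median-ratio scaling and 86 with quantile normalization.

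Replicate numbers are shared by the groups, and the titles do not say that they pair libraries. Deviations from the group means correlated weakly between same-numbered libraries (r = 0.1, -0.0538 and 0.0781), and at -0.113 to 0.0588 between other pairs. Libraries with the same number in their names had r of -0.113, 0.0309 and -0.0663. So few pairs cannot decide whether either number pairs libraries. The replicate block gave 1049 higher and 2978 lower, the replicate block with GC and length correction 1087 lower (-0.020), and the block on the number in the library names 592 and 1720. Of 122 named genes called, the replicate block lost 2 (Ctsf and Trim25) and called Cx3cr1 (0.65), the block on library-name numbers lost 6 (these 2, Cpe, Dusp1, Lgals1 and Slc39a12), and the block with GC correction lost 10 (the same 2, Aplp1, Atg4c, Cyp46a1, Grm2, Hmox2, Kcnj2, Tnip1 and Vgf) besides Srf.

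Signs changed for Cpe (-0.07) and mt-Nd2 (-0.09) with quantile normalization, for Srf with the GC correction (0.15) and with the block and GC correction (0.24), and, not called, for Grb2 with the latter (0.07). The cause was not tested. The call of Ctsf was lost with FPKM and each other scaling, and that of Cst3 with quantile normalization. Il1rl1 ranged from 0.65 to 0.77 with 1 library left out, and was 1.40 and 0.44 with pseudocounts of 0.1 and 1. Low values rest on few fragments: a gene near 0.5 TPM cannot show small differences at these depths.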
